A study of Mus musculus with 56 samples.

Results

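The core circadian clock genes are Bmal1 (named Arntl in older annotations), Clock, Npas2, Cry1, Cry2, Per1, Per2, Per3, Nr1d1 and Nr1d2. They were chosen by name, with earlier results of these data known. They are 10 of the 52230 genes to which a transcript of the files could be assigned. RNA was sequenced from the liver of 56 male mice of the line GCKR-P446L-EMI-B6N, in which residue 446 of GKRP, the protein that binds glucokinase in the hepatocyte nucleus, is proline (P) or leucine (L). All mice, controls included, were kept on HFHSD, a diet rich in fat and sugar, over 20 weeks. Its pellets had 45% of their energy as fat, and the sugar (10% glucose, 5% fructose) was in the drinking water. The groups were homozygous for proline (PP, n = 10), heterozygous (PL, n = 8) or homozygous for leucine (LL, n = 10), and the same genotypes given a glucokinase activator (GKA, 3 mg/kg) in the diet (PP GKA, n = 10; PL GKA, n = 8; LL GKA, n = 10). Each sample is a separate mouse. PP mouse 7 was left out of the comparisons, so that PP had n = 9. The study left out the same mouse.

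The circadian clock is a transcriptional loop. BMAL1 pairs with CLOCK or with its relative NPAS2 and activates genes through E-boxes, among them the Per and Cry genes, whose proteins then repress BMAL1 with its partner. REV-ERBα (Nr1d1) and REV-ERBβ (Nr1d2) are also targets of BMAL1, and repress Bmal1, Npas2 and Cry1 through elements that the activating ROR receptors share. In mouse liver, Nr1d1 and Per3 are high when Bmal1 and Npas2 are low, and the liver clock shifts with feeding, glucocorticoids and body temperature. The time of day of each harvest is not given in the sources used here, so a difference in clock time and a difference in the level of the rhythm cannot be told apart in these samples.

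The promoter windows below show the elements of this loop that lie close to the start of clock genes. RefSeq (GRCm38.p6) windows of 300 bases, from 250 before to 50 after a start site, were matched for 9 of the 10 genes, in 13 windows, and Per2 was not matched. They were searched on both strands for the E-box CACGTG, the E-box-like CACGTT, the D-box (TTA, any base, then GTAA), which DBP, TEF, HLF and NFIL3 bind, and the ROR and REV-ERB element, NGGTCA preceded by AANT. Of 32851 promoter windows of this length, 7.15% held the E-box, 4.68% the E-box-like letters, 2.32% the D-box and 0.61% the ROR and REV-ERB element. The E-box was found in windows of 2 members, the E-box-like letters in 3, the D-box in 1 and the ROR and REV-ERB element in 1. The windows with a match are printed 5′ to 3′ on the strand of the gene, with the matched bases in capitals, and CACGTT on the other strand reads as AACGTG.
Bmal1, chr7:113207261-113207560, plus strand, ROR and REV-ERB element: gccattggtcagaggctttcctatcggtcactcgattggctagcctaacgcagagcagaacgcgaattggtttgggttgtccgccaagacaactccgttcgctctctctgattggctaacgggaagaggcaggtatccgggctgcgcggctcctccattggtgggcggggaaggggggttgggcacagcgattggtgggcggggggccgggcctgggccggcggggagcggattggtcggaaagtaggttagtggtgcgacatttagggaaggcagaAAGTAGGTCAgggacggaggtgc
Cry1, chr10:85185005-85185304, minus strand, E-box-like letters and then E-box: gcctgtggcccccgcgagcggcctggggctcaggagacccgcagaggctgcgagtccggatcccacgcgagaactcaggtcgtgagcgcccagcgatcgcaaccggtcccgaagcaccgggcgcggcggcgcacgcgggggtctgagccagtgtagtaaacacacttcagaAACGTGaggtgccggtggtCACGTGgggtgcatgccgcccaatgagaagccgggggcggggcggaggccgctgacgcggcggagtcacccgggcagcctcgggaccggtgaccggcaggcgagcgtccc
Cry2, chr2:92434020-92434319, minus strand, E-box-like letters: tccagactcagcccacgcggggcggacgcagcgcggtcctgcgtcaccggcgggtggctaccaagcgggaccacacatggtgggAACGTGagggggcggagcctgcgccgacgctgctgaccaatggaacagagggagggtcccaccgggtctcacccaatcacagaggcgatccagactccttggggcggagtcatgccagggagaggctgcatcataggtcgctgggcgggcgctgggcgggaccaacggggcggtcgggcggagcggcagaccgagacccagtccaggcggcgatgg
Per1, chr11:69098699-69098998, plus strand, E-box: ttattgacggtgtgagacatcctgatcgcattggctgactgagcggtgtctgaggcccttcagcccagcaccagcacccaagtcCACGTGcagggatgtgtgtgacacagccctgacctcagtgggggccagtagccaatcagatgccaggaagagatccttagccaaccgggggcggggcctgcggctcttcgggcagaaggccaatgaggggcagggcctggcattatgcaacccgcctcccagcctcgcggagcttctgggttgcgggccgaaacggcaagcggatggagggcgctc
Per3, chr4:151044616-151044915, minus strand, a pair of D-boxes: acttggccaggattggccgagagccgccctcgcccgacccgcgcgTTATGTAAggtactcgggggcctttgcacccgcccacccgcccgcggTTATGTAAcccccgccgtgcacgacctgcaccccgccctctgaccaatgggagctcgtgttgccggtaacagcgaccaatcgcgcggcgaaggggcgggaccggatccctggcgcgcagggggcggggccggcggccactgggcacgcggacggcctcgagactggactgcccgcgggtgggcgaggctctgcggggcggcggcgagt
Nr1d1, chr11:98775328-98775627, minus strand, E-box-like letters: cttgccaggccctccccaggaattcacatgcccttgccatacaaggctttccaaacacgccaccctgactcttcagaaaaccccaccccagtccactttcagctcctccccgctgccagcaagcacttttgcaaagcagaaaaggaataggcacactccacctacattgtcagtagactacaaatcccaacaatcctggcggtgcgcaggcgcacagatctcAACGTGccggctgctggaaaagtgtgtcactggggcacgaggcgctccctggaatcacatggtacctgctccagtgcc
The Bmal1 element began at base 28 after the start site. In Cry1 the E-box-like letters began 79 bases and the E-box 60 bases before the start site. Per3 carried its D-boxes at 205 and 158 bases before the start site, Per1 its E-box at 166, Cry2 its E-box-like letters at 166 and Nr1d1 its E-box-like letters at 28. A match is a description of the letters and not of binding, and the windows of Clock, Npas2 and Nr1d2 held none of these letters.

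The depth was 5189852 to 8093368 reads per mouse, and the ranges of all groups overlapped. At this depth the clock genes had few reads. Nr1d1 had a median of 361 reads per mouse and Nr1d2 311, Clock had 182, Cry2 118 and Per2 61, whereas Per3 had 39, Per1 37, Bmal1 27, Cry1 20 and Npas2 3, with no read in some mice. The hepatocyte markers Alb, Apoa1, Ttr, Cps1 and Serpina1a summed to between 71826 and 125520 CPM (read counts scaled to the size of the library) in the 55 mice compared. Over the 6 groups, the summed level was 60.8 (PL) to 398.01 CPM (PL GKA) for 4 Kupffer cell markers, 90.4 to 206.95 CPM for 4 stellate cell markers, 53.02 to 124.17 CPM for 4 endothelial markers and 0.606 to 6.32 CPM for 4 bile duct markers, and the ranges of the groups overlapped in each list. The 4 pancreas markers were at 0 in all mice, as were Adipoq and Lep of the adipose markers and Ckm and Mb of the muscle markers. The adipose list summed to at most 4.32 CPM and the muscle list to at most 0.181 CPM in the mice compared. In bulk liver, fewer cells of a type and less RNA per cell cannot be told apart.

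Levels between genes were compared in TPM, a share of transcripts that is scaled by transcript length. Nr1d1 (chromosome 11, 98658752 to 98666188, GRCm39 here and for the other genes) had the highest median, 12.4 TPM over 55 mice, followed by Nr1d2 (chromosome 14, 4230545 to 4266624) with 7.11 TPM. Nr1d1 was above Nr1d2 in 51 of 55 mice, and Nr1d2 was above Cry2 (chromosome 2, 92233894 to 92264474; 3.35 TPM) in 55 of 55. Clock (chromosome 5, 76342860 to 76452846) had a median of 1.80 TPM. The next 5 genes lay close together. Per2 (chromosome 1, 91343700 to 91387069) had a median of 1.05 TPM, Per1 (chromosome 11, 68986035 to 69002300) 0.947, Bmal1 (chromosome 7, 112806152 to 112914735) 0.946, Cry1 (chromosome 10, 84967560 to 85021252) 0.896 and Per3 (chromosome 4, 151081373 to 151129140) 0.817. Per2 was above Per1 in 38 of 55 mice. The later neighbours did not differ beyond their spread, since Per1 was above Bmal1 in 26 of 55 mice, Bmal1 above Cry1 in 29 and Cry1 above Per3 in 28. Npas2 (chromosome 1, 39232705 to 39402323) was lowest with 0.105 TPM. Exons of Clock overlap those of Tmem165 and exons of Nr1d1 those of Thra, both on the opposite strand, and whether the counting used strand is not given in the sources used here.

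**Figure D1:**
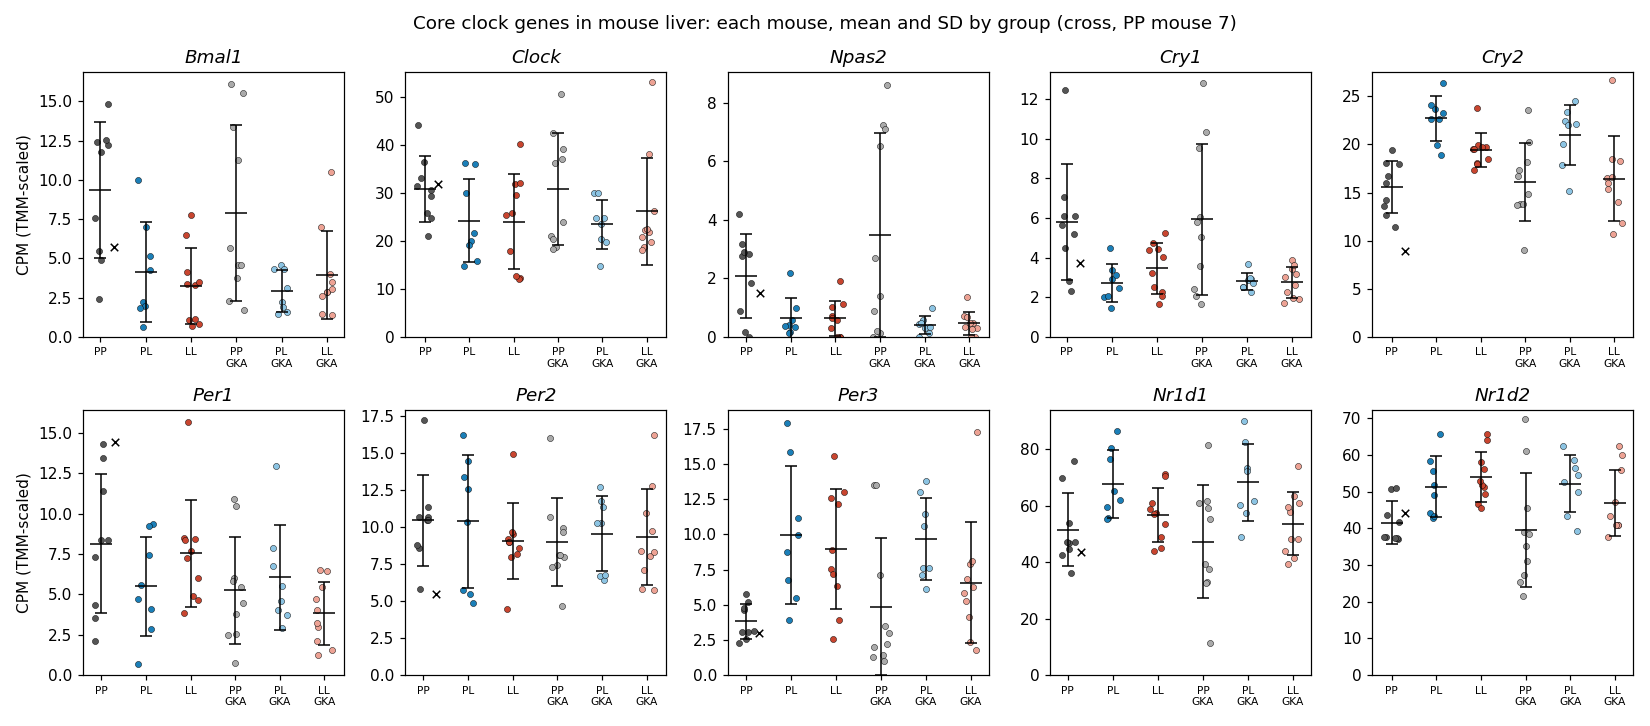
Normalised read count (CPM) of the 10 clock genes by group. Points are mice, bars the mean and SD of the group (PP n = 9, PL and PL GKA n = 8, the others n = 10), and the cross is PP mouse 7, which is in no mean. Npas2 reached 8.62 CPM in PP GKA and stayed at or below 2.17 CPM in PL, LL and both of these genotypes with GKA, while Per2 had similar means in all 6 groups.

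To compare the genotypes over all mice, genes were fitted with genotype and GKA as additive terms over 55 mice, so that each fold change by genotype rests on mice with and without GKA. By LL genotype, 3 clock genes fell (Bmal1, Npas2 and Cry1) and 1 rose (Nr1d2), 4 of 10 in all. Of the 11477 genes tested, 3.84% were called by LL genotype, 1.69% higher and 2.15% lower. By PL genotype, the same 3 genes fell, and Cry2, Per3 and Nr1d1 rose, 6 of 10 in all, where 1.91% of all genes were called, 0.819% higher and 1.09% lower. The median log2 fold change of the 10 genes was -0.17 by LL and -0.06 by PL genotype, beside 0.00 for all genes in both, since members moved in both directions. In the test of any difference among the 6 groups, Bmal1, Npas2, Cry1 and Cry2 were called, 4 of 10, where 1.88% of all genes were called. Both contrasts share the PP mice, so the effects of PL and LL are not independent. Npas2 passed the filter on low counts through the PP mice, of which 11 of 19 had 10 or more reads, against 1 of 16 PL and 1 of 20 LL mice, so its call is a description of where it was detected. Leaving it aside, 3 of the other 9 genes were called by LL and 5 by PL genotype. The calls left in the 6-group test were then Bmal1, Cry1 and Cry2 of the same 9. With the mean transcript length of each gene in each mouse as an offset, edgeR called 1 of the 10 by LL genotype, 0 by PL and 1 in the 6-group test. The gene called was Npas2 in both.

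Among the activators, Bmal1, the partner that every active complex needs, was lower in PL and LL. It had a lowest, median and highest level of 2.44, 11.8 and 14.8 CPM in PP, 0.635, 3.24 and 10.01 CPM in PL, and 0.701, 3.34 and 7.76 CPM in LL mice. With GKA these were 1.74, 5.11 and 16.1 CPM in PP, 1.45, 2.65 and 4.58 CPM in PL, and 1.39, 2.96 and 10.5 CPM in LL. All 10 LL mice lay below the median of PP and 8 of 10 LL GKA mice below that of PP GKA, and the ranges overlapped in both settings. In the additive fit the log2 fold change of Bmal1 was -1.25 by LL (SE 0.29, edgeR adjusted p 0.00718, a fold of 0.42) and -1.29 by PL genotype (SE 0.32, edgeR adjusted p 0.0163). With the length offset they were -1.18 (adjusted p 0.0978) and -1.34 (adjusted p 0.073).

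Npas2, which can take the place of CLOCK beside BMAL1, had the largest fold changes of the 10 genes and the fewest reads, and a gene that passes the filter only where it is high had to differ. Its level was 0 to 4.20 CPM in PP (median 2.76), 0.13 to 2.17 CPM in PL (median 0.374) and 0 to 1.90 CPM in LL (median 0.611). In PP GKA it spread from 0 to 8.62 CPM (median 2.05), where mice 11, 12, 18 and 19 lay at 6.51 CPM or more, mice 15, 16 and 17 between 0.88 and 2.69 CPM, and the other 3 at or below 0.188 CPM. The highest levels in PL GKA and LL GKA were 0.984 and 1.36 CPM. In the additive fit its log2 fold change was -2.28 by LL (SE 0.46, edgeR adjusted p 0.00135) and -2.39 by PL genotype (SE 0.50, edgeR adjusted p 0.00441), and all 20 LL and all 16 PL mice lay below the median of the 19 PP mice. With the length offset, PL missed the threshold (adjusted p 0.0538) and LL kept it (0.0483). The filter on low counts removed Npas2 from 8 of the 9 comparisons of 2 groups.

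Clock, the other partner of BMAL1, was not called. Its mean was 30.7 ± 6.88 CPM in PP (SD, n = 9), 24.2 ± 8.66 CPM in PL (n = 8) and 23.9 ± 9.84 CPM in LL (n = 10), and with GKA 30.7 ± 11.6, 23.4 ± 5.14 and 26.1 ± 11.1 CPM. The log2 fold change was -0.30 by LL (SE 0.15, edgeR adjusted p 0.336) and -0.37 by PL genotype (SE 0.16, edgeR adjusted p 0.268), with overlapping ranges.

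**Figure D2:**
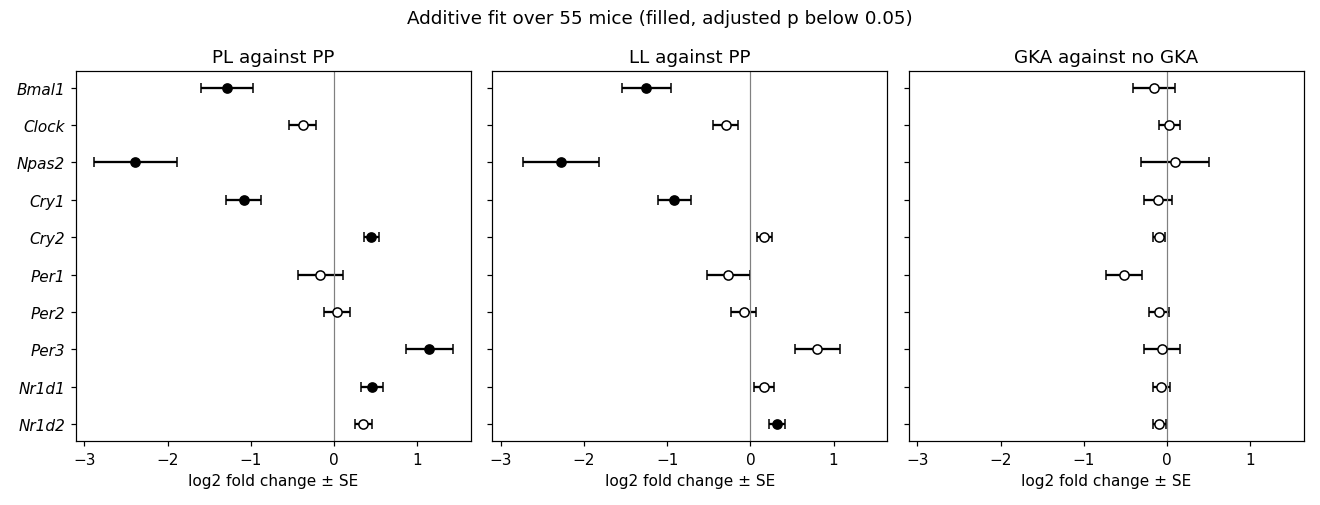
Log2 fold change of the 10 clock genes in the additive fit over 55 mice, for PL against PP, LL against PP and GKA against no GKA. Points are the fitted values, bars their SE, and filled points passed an adjusted p of 0.05. Npas2, Bmal1 and Cry1 lie left of 0 by both genotypes, and no point is filled for GKA.

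Among the repressors, Cry1 fell by both genotypes and Cry2 rose by PL genotype. Cry1, a strong repressor of BMAL1, had a lowest, median and highest level of 2.31, 5.62 and 12.4 CPM in PP, 1.45, 2.69 and 4.47 CPM in PL, and 1.64, 3.64 and 5.22 CPM in LL. With GKA these were 1.66, 5.43 and 12.8 CPM in PP, 2.25, 2.77 and 3.66 CPM in PL, and 1.70, 2.82 and 3.90 CPM in LL. Every LL mouse and every PL mouse lay below the median of the PP mice, with ranges that overlapped. The log2 fold change was -0.91 by LL (SE 0.19, edgeR adjusted p 0.00263) and -1.08 by PL genotype (SE 0.21, edgeR adjusted p 0.00223). The length offset gave -0.86 (adjusted p 0.2) and -0.48 (adjusted p 0.506).

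Cry2, its paralogue, was highest in PL. It spanned 11.4 to 19.4 CPM in PP (median 16.0), 18.9 to 26.4 CPM in PL (median 23.0) and 17.3 to 23.8 CPM in LL (median 19.5). With GKA it spanned 9.00 to 23.6 CPM in PP (median 15.8), 15.1 to 24.5 CPM in PL (median 22.1) and 10.7 to 26.7 CPM in LL (median 16.2). The log2 fold change by PL genotype was 0.45 (SE 0.09, edgeR adjusted p 0.0035), and 0.44 with the length offset (adjusted p 0.0872). By LL genotype it was 0.17 (SE 0.09, edgeR adjusted p 0.351). LL against PL gave -0.28 (SE 0.09, unadjusted p 0.00254, edgeR adjusted p 0.175), and 18 of 20 LL mice lay below the PL median.

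The 3 Per genes, whose proteins carry CRY into the repressor complex, did not move alike. Per3 spanned 2.26 to 5.77 CPM in PP (median 3.13), 3.92 to 17.9 CPM in PL (median 9.36) and 2.53 to 15.6 CPM in LL (median 8.24). With GKA it spanned 0.996 to 13.5 CPM in PP (median 2.61), where mice 13 and 14 held the 2 highest values, 6.10 to 13.8 CPM in PL (median 9.12) and 1.75 to 17.3 CPM in LL (median 6.05). The log2 fold change of Per3 was 1.15 by PL (SE 0.28, edgeR adjusted p 0.0143, 0.0865 with the length offset) and 0.80 by LL genotype (SE 0.27, edgeR adjusted p 0.0823). Per2 had means between 8.98 CPM in PP GKA and 10.4 CPM in PP, and its log2 fold changes were -0.08 by LL (SE 0.15) and 0.04 by PL genotype (SE 0.15), with edgeR adjusted p 0.872 and 0.948. Per1 had 8.14 ± 4.32 CPM in PP (SD, n = 9), 5.49 ± 3.05 CPM in PL (n = 8) and 7.53 ± 3.33 CPM in LL (n = 10), with log2 fold changes of -0.27 by LL (SE 0.26, edgeR adjusted p 0.71) and -0.17 by PL genotype (SE 0.27, edgeR adjusted p 0.853).

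Each REV-ERB gene was called higher in 1 of the 2 contrasts with PP. Nr1d1 had a lowest, median and highest level of 36.1, 47.0 and 75.9 CPM in PP, 55.3, 63.6 and 86.6 CPM in PL, and 43.9, 57.3 and 71.3 CPM in LL. With GKA these were 11.2, 47.4 and 81.5 CPM in PP, 48.9, 67.0 and 89.9 CPM in PL, and 39.2, 53.1 and 74.2 CPM in LL. In the additive fit Nr1d1 had a log2 fold change of 0.46 by PL (SE 0.13, edgeR adjusted p 0.0445, 0.155 with the length offset) and of 0.16 by LL genotype (SE 0.12, edgeR adjusted p 0.596). Nr1d2 had 41.6 ± 5.76 CPM in PP (SD, n = 9), 51.4 ± 8.22 CPM in PL (n = 8) and 54.1 ± 6.82 CPM in LL (n = 10), and with GKA 39.5 ± 15.6, 52.2 ± 7.73 and 47.0 ± 9.03 CPM. Its log2 fold change was 0.31 by LL (SE 0.10, edgeR adjusted p 0.0489, 0.513 with the length offset) and 0.35 by PL genotype (SE 0.10, edgeR adjusted p 0.0521). Without PP GKA mouse 19 the adjusted p by LL was 0.08, and without LL mouse 46 it was 0.0792.

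The 2-group comparisons without GKA ask the same question in fewer mice. For LL against PP, edgeR called 0 of 9 clock genes tested (0.104% of all genes), with 5 of 9 at an unadjusted p below 0.05 (11.8% of all genes). These were Per3 (log2 fold change 1.22, SE 0.28), Nr1d2 (0.38, SE 0.09), Cry2 (0.32, SE 0.09), Bmal1 (-1.48, SE 0.39) and Cry1 (-0.72, SE 0.27). DESeq2 called 3 of them (Bmal1, Per3 and Nr1d2), as did edgeR without PP mouse 6 or without LL mouse 42, and edgeR called Per3 without LL mouse 44 or with PP mouse 7 kept. For PL against PP, edgeR called 2 of 9 (0.161% of all genes), Cry2 (log2 fold change 0.54, SE 0.10, adjusted p 0.0303) and Per3 (1.38, SE 0.27, adjusted p 0.0462), with 6 of 9 at an unadjusted p below 0.05 (10.1% of all genes). Neither was called without PP mouse 1, 5, 8, 9 or 10 or without PL mouse 25, 26 or 28. One of the pair was lost without PP mouse 2 or 4 or PL mouse 24 or 27 (Per3) and without PL mouse 21 or 22 (Cry2), and the length offset left 0. All 6 groups in 1 fit also left 0, with adjusted p 0.0507 for Cry2 and 0.151 for Per3. For LL against PL, 0 of 9 were called by edgeR and by DESeq2 (0.00942% of all genes by edgeR), and 2 of 9, Cry2 and Nr1d1, were at an unadjusted p below 0.05 (4.58% of all genes).

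With GKA, edgeR fitted to the 2 groups called no clock gene between genotypes, although Bmal1 and Cry1 had log2 fold changes below -1 in PL and LL against PP. For LL against PP, 0 of 9 were called (0.239% of all genes) and 2 of 9 were at an unadjusted p below 0.05 (10.4% of all genes), Bmal1 (-1.02, SE 0.41) and Cry1 (-1.11, SE 0.33), of which DESeq2 called Cry1. With all 6 groups in 1 fit, edgeR called Npas2 and Cry1 for LL and Npas2 for PL against PP. For PL against PP, 0 of 9 were called (0% of all genes, and 0 of 9 by DESeq2) and 5 of 9 were at an unadjusted p below 0.05 (8.19% of all genes), with Bmal1 at -1.44 (SE 0.43) and Cry1 at -1.09 (SE 0.35). For LL against PL, 0 of 9 were called by edgeR and by DESeq2 (0% of all genes by edgeR) and 3 of 9 were at an unadjusted p below 0.05 (8.6% of all genes). These 3 were Cry2, Per1 and Nr1d1, all with negative log2 fold changes. The additive fit likewise called 0 of 10 for LL against PL by edgeR and by DESeq2 (0.453% of all genes by edgeR), with 2 of 10, Cry2 and Nr1d1, at an unadjusted p below 0.05 (8.82% of all genes).

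To assess whether GKA altered the clock genes, mice with and without GKA were compared. In the additive fit, edgeR and DESeq2 called 0 of 10 (0% of all genes by edgeR), and 1 of 10, Per1, was at an unadjusted p below 0.05 (5.28% of all genes). Per1, which responds quickly to glucocorticoids and to cAMP, had a log2 fold change of -0.52 with GKA (SE 0.22, unadjusted p 0.0212, edgeR adjusted p 0.871), and 24 of 28 mice with GKA lay below the median of those without. Within genotypes, edgeR and DESeq2 called 0 of 10 in PP, 0 of 9 in PL and 0 of 9 in LL (0% of all genes by edgeR in each). At an unadjusted p below 0.05 there were 0 of 10 in PP (3.56% of all genes), 0 of 9 in PL (3.18%) and 1 of 9 in LL (6.15%). That gene was Per1, which spanned 3.85 to 15.7 CPM in LL and 1.22 to 6.50 CPM in LL GKA (log2 fold change -0.97, SE 0.28, unadjusted p 0.00246, edgeR adjusted p 0.569). All 10 LL GKA mice lay below the median of LL, and the ranges overlapped. In PP the log2 fold change of Per1 was -0.60 (SE 0.37) and in PL 0.14 (SE 0.38). In the test of the interaction, which asks whether the effect of GKA differed between genotypes, 0 of 10 were called by edgeR and by DESeq2 (0% of all genes by edgeR), and 0 of 10 had an unadjusted p below 0.05 (4.31% of all genes), Per1 being lowest with 0.116.

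Clock genes varied together between mice of the same group. The 2 genes of a pair are read from the same library and share its depth. After log2 CPM values were centred on their group means, 35 of the 45 pairs were correlated over 55 mice at an adjusted permutation p below 0.05 (two-sided, 100000 resamples within groups, adjusted over the 45 pairs), 16 positively and 19 negatively. The weakest of these had an r of size 0.33, which 17.5% of the 66303370 pairs of genes that passed the filter reached in either direction. Of these, 23 had the same sign in all 6 groups, 33 also passed with Spearman's rho, and 34 kept an unadjusted p below 0.05 without the 2 mice farthest from the median of the first gene, the exception being Clock with Per2 (r -0.27, permutation p 0.059). On log2(TPM + 1) values 21 pairs passed and 9 of the 35 changed sign, none of them among the pairs of Bmal1, Npas2, Clock and Cry1 with each other. The TPM were not TMM-scaled between mice. Nr1d1, with 99.23% of its reads in 1 transcript, had 36.15 CPM and 15.755 TPM in PP mouse 5. In PL mouse 25 it had 86.614 CPM and 7.8469 TPM. Per2 had 27.692 TPM from 46 reads in LL GKA mouse 50. A scale difference between libraries acts on both genes of a pair, and its part in the changes of sign was not tested.

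The activators and Cry1 rose and fell together. Bmal1 had a Pearson's r of 0.78 with Clock (rho 0.79), 0.77 with Npas2 (rho 0.81) and 0.72 with Cry1 (rho 0.74), each with a permutation p of 1e-05 for r and rho, the smallest that the resamples can give, and an adjusted p of 3.2e-05 for r and 3.5e-05 for rho. Within groups these ranged from 0.36 to 0.88, from 0.59 to 0.92 and from 0.43 to 0.88. Per3 opposed them, with r -0.77 to Bmal1 (rho -0.80, permutation p 1e-05 for both, adjusted 3.2e-05 and 3.5e-05), and between -0.93 and -0.58 within groups. Without the 2 farthest mice, r was 0.76, 0.77 and 0.73 for the first 3 pairs and -0.75 for Bmal1 with Per3.

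Both REV-ERB genes had a negative r to Bmal1, Npas2 and Cry1 on the CPM scale. Nr1d1 had r -0.47 to Bmal1 (rho -0.48, permutation p 0.00027 and 0.00037, adjusted 0.00057 and 0.00083), -0.23 or lower in every group, and -0.45 without the 2 farthest mice. Nr1d2 had r -0.64 to Bmal1 (rho -0.68, permutation p 1e-05 for both, adjusted 3.2e-05 and 3.5e-05), -0.49 or lower in every group, and -0.64 without the 2 farthest mice. On log2(TPM + 1) values, r to Bmal1 turned to 0.088 for Nr1d1 and 0.129 for Nr1d2, and r to Cry1 to 0.135 and 0.089, while r to Npas2 was -0.213 and -0.18 and did not pass. These TPM were not TMM-scaled between mice, unlike the CPM. Nr1d2 and Per3 had r 0.74 (rho 0.65, permutation p 1e-05 for both, adjusted 3.2e-05 and 3.5e-05), between 0.27 and 0.94 within groups and 0.65 without the 2 farthest mice. Cry2 had r 0.37 with Per2, from 0.075 in PL to 0.864 in LL GKA, and r -0.14 with Bmal1. Its r with Per3 was 0.36, which did not pass with Spearman's rho (0.26, adjusted permutation p 0.082).

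**Figure D3:**
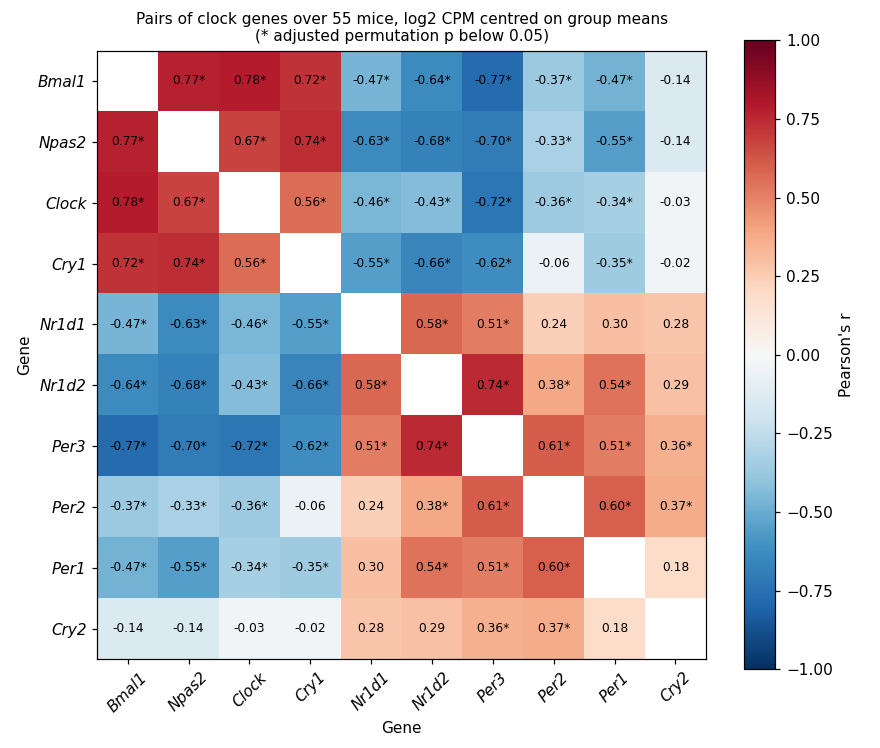
Pearson's r of each pair of clock genes over 55 mice, from log2 CPM centred on group means, with an asterisk where the adjusted permutation p was below 0.05. Bmal1, Npas2, Clock and Cry1 form a block of positive values in one corner, and their values with Per3, Nr1d1 and Nr1d2 are negative.

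In each liver the log2 CPM of Nr1d1, Per3 and Per2 was set against that of Bmal1, Npas2 and Cry1, in that order, with no test. These log-ratios are made of the genes compared above and restate their levels for each mouse. A shift in clock time and a change in the level of a gene cannot be told apart in them. Nr1d1 minus Bmal1 had a lowest, median and highest value of 1.52, 2.48 and 4.30 in PP, 2.44, 4.22 and 6.36 in PL, and 2.83, 3.88 and 6.14 in LL. With GKA these were -0.45, 3.20 and 4.92 in PP, 3.56, 4.36 and 5.47 in PL, and 1.87, 3.93 and 5.18 in LL. None of the LL mice, 1 of 8 PL mice, 4 of 10 PP GKA mice, 0 of 8 PL GKA mice and 1 of 10 LL GKA mice lay below the median of PP without GKA. Against the PP GKA median of 3.20, LL GKA mice 49 (1.87) and 50 (2.99) lay below, and the lowest PL GKA mouse (3.56) lay above. Per3 minus Npas2 spanned -0.29 to 3.51 in PP (median 0.67), 0.78 to 5.31 in PL (median 3.84) and 0.36 to 5.72 in LL (median 3.16). LL mice 43, 45 and 46, at 5.72, 5.47 and 5.43, had 0 reads of Npas2, so the prior count of 2 set their Npas2 value.

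The PP GKA livers were the most spread of the 6 groups in both log-ratios. Per3 minus Npas2 spanned -2.52 to 5.53 in PP GKA, with an SD of 3.10, against 1.53 in PP and 1.00 in PL GKA. Mice 11, 12, 18 and 19 lay between -2.52 and -1.56, below every other mouse, and mice 13 and 14 lay at 5.06 and 5.53. Npas2 had 1 read in mouse 13 and 0 in mouse 14, so this high end depends on the prior count. The median of Per2 minus Cry1 was 0.75 for PP, 2.14 for PL and 1.53 for LL mice, and 0.84, 1.83 and 1.66 with GKA, with overlapping ranges. On log2(TPM + 1) values its mean in PL was 0.164 below that of PP instead of 0.839 above.

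**Figure D4:**
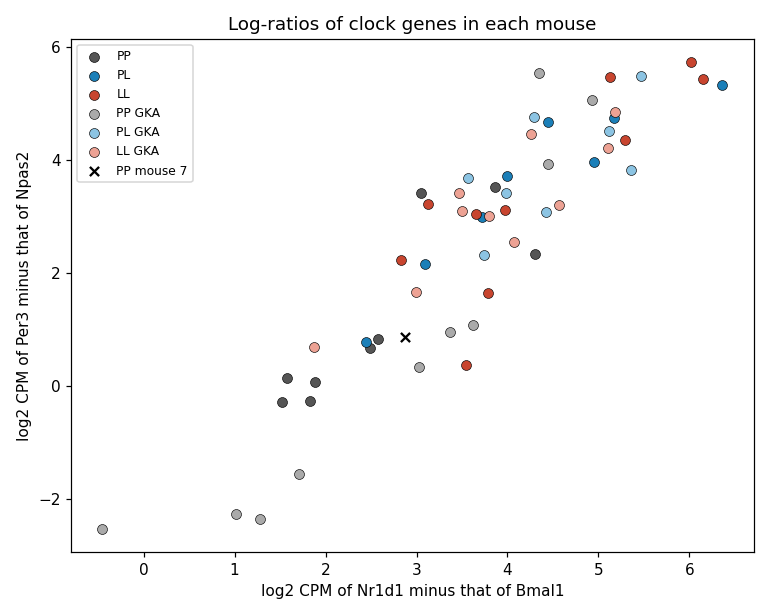
Log-ratios of clock genes in each mouse, as log2 CPM of Nr1d1 minus that of Bmal1 (x axis) and of Per3 minus that of Npas2 (y axis), coloured by group, with a cross for PP mouse 7. The 4 mice lowest on the y axis, between -2.52 and -1.56, are all PP GKA.

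**Figure D5:**
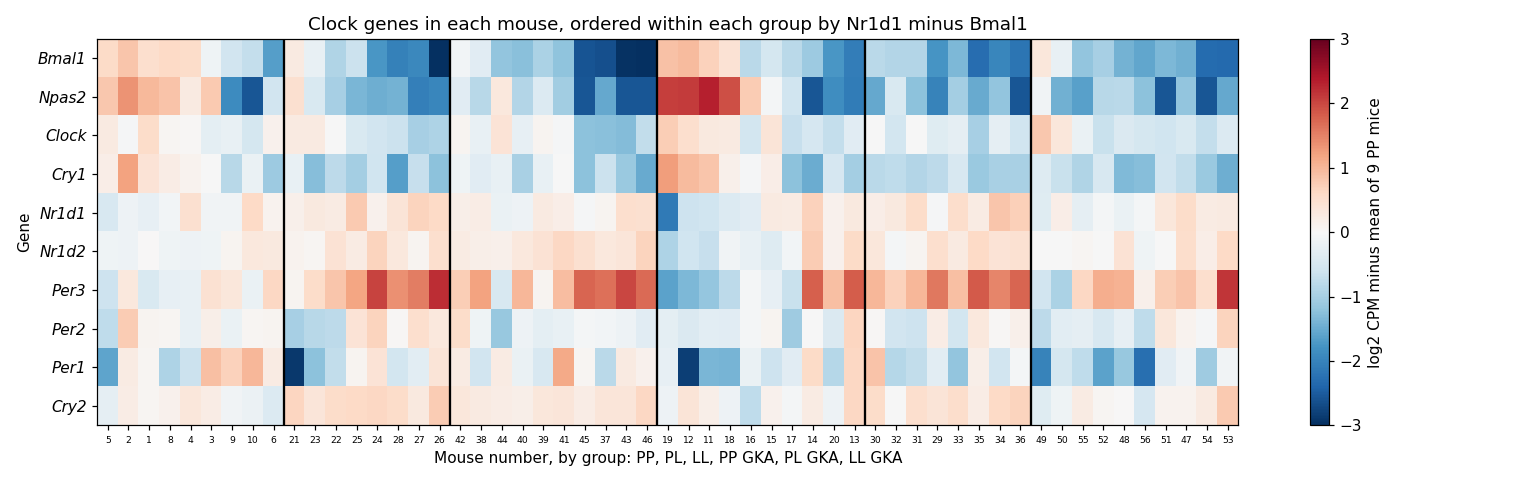
Log2 CPM of each clock gene in each of 55 mice minus the mean of the 9 PP mice, with groups divided by black lines and mice ordered within a group by Nr1d1 minus Bmal1. Red is higher and blue lower, and the PP GKA block runs from high Bmal1 and Npas2 with low Per3 in mice 19, 12, 11 and 18 to the opposite in mice 14, 20 and 13.

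Several clock genes were among the more variable genes of these livers. The SD of log2 CPM within groups was 1.2 for Npas2, 0.955 for Bmal1, 0.844 for Per1 and 0.821 for Per3, above those of 96.1%, 94.8%, 93.8% and 93.5% of 11516 genes that passed the filter. Cry1 (0.595) was above 87.2%, Clock (0.493) above 79.4%, Per2 (0.468) above 76.6% and Nr1d1 (0.427) above 71.6%. Nr1d2 (0.302) and Cry2 (0.271) lay near the middle, above 46.9% and 37.7% of genes. Low counts add to this SD, and these percentiles are not adjusted for level.

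The genes most like a clock gene were ranked by r with it over the same 55 mice, as a description. For Bmal1, the non-member genes with the highest r were Clpx (a mitochondrial protease subunit, 0.88), Chka (choline kinase, 0.88), Caprin1 (0.86), Gldc (glycine decarboxylase, 0.85) and Pnkd (0.84), and those with the lowest were Cyp2a5 (-0.85), Dbp (-0.83), Gys2 (liver glycogen synthase, -0.82), Pcsk4 (-0.79) and Usp2 (-0.79). Among 11515 genes, Clock ranked 18 from the top, Npas2 22 and Cry1 42, and Per3 ranked 8 from the bottom. For Nr1d1, the highest were Dbp (0.75), Rgs16 (0.69), Arrdc3 (0.67), Tbc1d10a (0.66) and Cdc42ep4 (0.57), and among the lowest were Il22ra1 (-0.55), Skil (-0.55), Rfxank (-0.55) and Itga5 (-0.54). Npas2 was the gene with the lowest r to Nr1d1 of all 11515 (-0.63). Npas2 had a median of 3 reads, and this r went from -0.77 in PP GKA to 0.014 in PL GKA. It did not pass on log2(TPM + 1) values.

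Transcription factors tied to the clock also differed by genotype. Of 11 such genes, 9 were tested in the additive fit, and by LL genotype 4 were called higher and 1 lower, with a median log2 fold change of 0.52 beside 0.00 for all genes. By PL genotype 4 were called higher and 1 lower, with a median of 0.37. Of all genes, 3.84% were called by LL and 1.91% by PL genotype. Dbp, an activator of D-boxes, had 17.1 ± 9.02 CPM in PP (SD, n = 9), 49.3 ± 23.4 CPM in PL (n = 8) and 52.9 ± 34.4 CPM in LL (n = 10), with log2 fold changes of 1.16 by LL and 1.37 by PL genotype (SE 0.34 and 0.35, edgeR adjusted p 0.0349 and 0.0216). Bhlhe41, a repressor at E-boxes, rose by 1.26 and 1.56 on the log2 scale (edgeR adjusted p 0.0135 and 0.00461). Its level was low, with a mean of 0.861 CPM for PP, 2.73 for PL and 2.54 for LL mice without GKA. With GKA these means were 0.816, 2.35 and 1.68 CPM. The filter on low counts removed Bhlhe41 from LL and PL against PP without GKA, and from LL against PP with GKA. It was kept for PL against PP with GKA and for LL against PL. Its calls are therefore in part a description of where it was detected. Nfil3, a repressor at D-boxes, fell by 0.74 and 0.92 on the log2 scale (edgeR adjusted p 0.00782 and 0.00395). Hlf rose by 0.34 and 0.37 on the log2 scale (edgeR adjusted p 0.0375 and 0.0465), Bhlhe40 was called by LL (0.65, edgeR adjusted p 0.000755; 0.30 and 0.26 by PL) and Tef by PL genotype (0.61, edgeR adjusted p 0.0433; 0.52 and 0.0581 by LL). For LL against PL, edgeR called 0 of 9, with 1 at an unadjusted p below 0.05, Bhlhe40 (0.35, unadjusted p 0.00876). With the length offset, 0 of 9 were called by LL and 1 of 9 (Nfil3) by PL genotype. Without LL mouse 46, 3 were called by LL, and without PP GKA mouse 19, 3 were called by PL genotype.

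Regulators of clock proteins, among them kinases and ubiquitin ligases, made up a further list. Of 21 tested, 0 were called higher and 2 lower by LL genotype, the kinase gene Gsk3b (-0.26, edgeR adjusted p 0.0468) and Sfpq (-0.24, edgeR adjusted p 0.0446), and 0 were called by PL genotype, with 1 higher and 3 lower at an unadjusted p below 0.05 (14.1% of all genes). Their median log2 fold changes were 0.01 and -0.05, and 3.84% of all genes were called by LL and 1.91% by PL genotype. For GKA in the additive fit, edgeR called 0 genes in each of the 6 lists described here, with at most 3 genes of a list at an unadjusted p below 0.05.

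Some genes that respond to signals known to shift the liver clock were called by genotype in the additive fit, where 3.84% of all genes were called by LL and 1.91% by PL genotype. Of 6 glucocorticoid-responsive genes, 2 were called lower by LL genotype, Tsc22d3 (-0.94, edgeR adjusted p 0.00321) and Zbtb16 (-1.40, edgeR adjusted p 0.0137), and 1 by PL genotype, Tsc22d3 (-1.02, edgeR adjusted p 0.00529), with list medians of -0.20 and -0.27. Fkbp5 and Sgk1 lay above 0 by LL genotype (0.14 and 0.035, edgeR adjusted p 0.882 and 0.964). By PL genotype they lay below 0 (-0.21 and -0.25, edgeR adjusted p 0.812 and 0.595). Dusp1 and Errfi1 lay below 0 by both genotypes and were not called. Of 10 temperature-responsive genes tested, 0 were called higher and 5 lower by LL genotype and 6 lower by PL genotype, with medians of -0.31 and -0.42. The list was not divided by the direction in which its genes respond to temperature, so these medians have no single reading. Cirbp and Rbm3 of this list had positive log2 fold changes and were not called. Their log2 fold changes were 0.39 and 0.24 by LL genotype (edgeR adjusted p 0.0532 and 0.283). By PL genotype they were 0.43 and 0.13 (edgeR adjusted p 0.0581 and 0.705). Hsph1, a heat-shock chaperone, had 48.8 ± 12.2 CPM in PP (SD, n = 9), 25.1 ± 4.37 CPM in PL (n = 8) and 25.7 ± 14.1 CPM in LL (n = 10), with log2 fold changes of -0.83 by LL and -0.96 by PL genotype (edgeR adjusted p 0.000291 and 0.000499). Of 5 immediate early genes tested, 1 was called lower by LL (Btg2, -0.68, edgeR adjusted p 0.0329) and 0 by PL genotype, with list medians of -0.30 and -0.01. Among the genes of feeding and fasting, G6pc1 (0.99, edgeR adjusted p 0.00135) was called higher by LL genotype and Igfbp1 (-1.16, edgeR adjusted p 0.0152) lower by PL genotype. LL against PL called Junb lower and G6pc1 higher (0.453% of all genes). The part of these genes in the clock values was not tested.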

How the data were processed

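RNA with an integrity number above 6 was sequenced from the liver of 56 mice. Per the submitters' processing notes, the authors used FastQC and Salmon 1.4.0 on GRCm39. The deposited estimated counts per transcript are not normalised, and the deposited TPM are scaled by Salmon for effective length. Transcripts were assigned to genes by identifier in GENCODE vM39 (GRCm39), where 137570 of 139225 matched (98.8%), and estimated counts were summed per gene and rounded. The lowest chi-square per degree of freedom was 11.3 over 236 pairs of mice within groups, so no mouse was counted as a repeat of another. edgeR 4.0.16 (R 4.3.3) gave the tests (quasi-likelihood, with TMM and filterByExpr), and genes were called at a Benjamini-Hochberg adjusted p below 0.05 over all genes. The SE is the log2 fold change divided by the root of F. CPM are TMM-scaled, with a prior count of 2 on the log2 scale. The fits and correlations were tested on simulated data. The alternatives were DESeq2 1.42.0, RLE size factors, no filter, all 6 groups in 1 fit, a transcript length offset, PP mouse 7 kept, single mice left out, and for correlations and log-ratios a prior count of 0.5 or log2(TPM + 1). All 10 clock genes are named, with list genes that passed the threshold and the 5 genes most like Bmal1 and Nr1d1 at each end. A few genes that this rule names are not reported here. Members and lists were chosen with earlier results of these data known. Correlations were permuted with NumPy 2.4.6. The labels give no batch or harvest time, so no comparison within batches was possible.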

Additional observations from a re-analysis of the deposited data

Results flagged for a closer look

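Dixon's rule was applied to log2 CPM values in 60 sets (10 clock genes in 6 groups), and the levels below are given in CPM. On the log2 scale, 3 sets held a mouse farther from its nearest neighbour than the critical value allows. By chance about 1 in 20 sets, or 3.0, would do so. These 3 sets were Cry2 in LL, with mouse 46 the highest of 10 at 23.8 CPM, and Per2 in LL, with mouse 44 the lowest of 10 at 4.43 CPM. The other was Nr1d1 in PP GKA, with mouse 19 the lowest of 10 at 11.2 CPM. PP mouse 7, which was in no comparison, had 14.4 CPM of Per1, above the highest of the other 9 PP mice at 14.3 CPM.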

How the results depend on the processing

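No paired analysis was possible because each mouse has a number of its own, with no number shared between groups. Of 10 clock genes, the length offset called 1 by LL genotype, 0 by PL genotype and 1 in the 6-group test, and 0 for PL against PP without GKA, and the cause was not tested. DESeq2 gave no adjusted p for Npas2 by PL genotype in the additive fit. It called 3 for LL against PP without GKA and 1 with GKA. PP mouse 7 kept gave 1 for LL against PP. All 6 groups in 1 fit gave 0 for PL against PP, and with GKA 2 for LL against PP and 1 for PL against PP. Leaving out 1 mouse gave 0 to 3 for LL against PP and 0 to 2 for PL against PP, and 0 in both with GKA. Of the clock-associated transcription factors, no filter called 3 by LL and 3 by PL genotype and the length offset 0 and 1, and leaving out LL mouse 44, LL mouse 46 or PP GKA mouse 19 gave 3 to 5 by LL and 3 to 5 by PL genotype. These settings for that list, and the mice left out of the additive fit and the 6-group test, were chosen after seeing the data. On log2(TPM + 1), 21 pairs were correlated instead of 35, and r changed sign for Bmal1 with Per2 (0.099), Nr1d1 (0.088) and Nr1d2 (0.129), for Clock with Per2 (0.101), Nr1d1 (0.295) and Nr1d2 (0.42), for Cry1 with Nr1d1 (0.135) and Nr1d2 (0.089), and for Per2 with Per3 (-0.011). The TPM were not TMM-scaled between mice, and the part of this in the changes of sign was not tested. On the same log2(TPM + 1) scale the difference of PL from PP was 0.834 for Per3 minus Npas2 and -0.164 for Per2 minus Cry1. No other result changed its direction under these alternatives. Depth limits Npas2, with a median of 3 reads.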

Other observations

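PP mouse 7 had 8.95 CPM of Cry2 and 5.47 CPM of Per2, below the lowest of the other 9 PP mice at 11.4 and 5.79 CPM, and its other clock genes apart from Per1 lay within their range.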
